A study of Mus musculus with 8 samples.

Results

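The nuclear genes for the subunits of respiratory complexes II, III, IV and V were followed in RNA that was pulled down from hippocampal CCK cells of SMARCA3 conditional knockout (cKO) mice and controls. Members were defined by gene symbol, with a rule that was set when earlier results of these data were known. The rule took the protein-coding genes Sdha, Sdhb, Sdhc, Sdhd and Cyc1. It also took protein-coding genes whose symbols begin with Uqcr, Cox4i, Cox5, Cox6, Cox7, Cox8 or Atp5, without Atp5s and Atp5sl. This gave 47 of the 39017 genes in the count table, spread over 18 chromosomes: 4 of complex II, 9 of complex III, 18 of complex IV and 16 of complex V. The samples were 8 libraries made by translating ribosome affinity purification (TRAP), in which a tagged ribosomal protein, here L10-EGFP, is used to pull ribosomes and their RNA from chosen cells. All mice carried CCK cre and L10-EGFP, so that the tag marks cells that make Cck or made it earlier in life. The 5 cKO libraries came from mice that were also SMARCA3 fl/fl, and the 3 control libraries, called wild type (WT), from littermates that were not SMARCA3 fl/fl. SMARCA3 is encoded by Hltf, and the exons flanked by loxP sites, the age and the sex of the mice are not given in the sources used here. Each library pooled 4 hippocampi, and nothing states how the pools relate to each other, so the p-values measure the spread between these 8 pools.

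Complex II, succinate dehydrogenase, oxidises succinate in the tricarboxylic acid cycle and hands the electrons to ubiquinone. Complex III passes them from ubiquinol to cytochrome c, complex IV passes them from cytochrome c to oxygen, and complex V, the ATP synthase, makes ATP from the proton gradient that complexes III and IV help to build. Synapses and spiking neurons draw most of their ATP from this chain. All subunits of complex II are nuclear genes, whereas complexes III, IV and V also hold subunits that are translated inside the mitochondrion.

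Total counts ranged from 31760155 to 61823651 per library. Hltf was at 13.7, 8.39 and 9.88 CPM (edgeR's count unit, scaled for depth between libraries) in WT 1, 2 and 3 and at 5.10, 4.49, 4.21 and 2.83 CPM in cKO 1, 2, 3 and 4. It was at 11.4 CPM in the library labelled cKO 5, inside the WT range, so the leading results are also given without that library. The 10 markers of neurons and CCK cells summed to 19790 to 23980 CPM in WT and 17370 to 22400 CPM in cKO, most of it Snap25, and 7 of 10 had a log2 fold change above 0. Slc17a7, which marks glutamatergic neurons, was at 333 to 365 CPM in WT and 439 to 548 CPM in cKO, without overlap (log2 fold change 0.49; adjusted p = 0.470 by edgeR). Gad2, which marks GABAergic neurons, was at 79.0 to 97.2 and 49.6 to 87.7 CPM (-0.33), with overlap. Gad1 and Slc32a1, which mark GABAergic neurons too, had log2 fold changes of 0.04 and 0.12, also with overlap. Cck was at 415 to 631 and 571.5 to 837 CPM (0.29), with overlap. The summed level of 8 astrocyte markers was 25.6 to 37.5 CPM in WT and 31.6 to 35.4 CPM in cKO, that of 8 microglial markers 4.25 to 6.49 and 2.15 to 5.52 CPM, and that of 8 vessel markers 54.5 to 72.7 and 22.7 to 86.4 CPM. Most of the vessel sum was Rgs5, at 52.9 to 71.4 CPM in WT and 18.3 to 82.4 CPM in cKO. Tmem119, C1qa, C1qb, Aif1 and Trem2 of the microglial list, Cldn5 and Tek of the vessel list and Aldh1l1 of the astrocyte list had no count in at least 1 library. The 8 oligodendrocyte markers summed to 68.9 to 72.3 CPM in WT and 80.7 to 103.5 CPM in cKO, without overlap, and all 8 had a log2 fold change above 0. The part of these marker differences in the results that follow was not tested. In pulled-down tissue, fewer cells of a type and less RNA per cell cannot be told apart.

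Many genes of the respiratory chain carry a binding sequence for nuclear respiratory factor 1 (NRF1), a transcription factor known for driving them, near their start site. RefSeq promoter sequences (GRCm38.p6) were matched for 35 of the 47 genes, and the 250 bases before each start were searched on both strands. The core of the NRF1 motif was found in 7 of 35 members (20.0%). Among all 27025 genes with a promoter window it was found in 4.23% (3.74% of 32851 windows of the same length). That set is not limited to the genes tested here or to genes of like level. These sites are shown because of the 3 motifs searched this was the one that most members held. Capitals mark the motif, in which the sixth base may be any letter, and each sequence is read 5′ to 3′ on the gene's own strand, which is the minus strand for all 7.
Sdha (chr13:74350319-74350348): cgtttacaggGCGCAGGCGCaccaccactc
Sdhd (chr9:50603909-50603938): tcgctggggtGCGCACGCGCggtggcagcg
Cox6a1 (chr5:115349101-115349130): caggaacgggGCGCATGCGCgctctcgctc
Atp5c1 (chr2:10080433-10080459): ctgagctcccGCGCACGCGCactgagt
Atp5g2 (chr15:102671070-102671099): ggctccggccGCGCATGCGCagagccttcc
Atp5h (chr11:115420041-115420070): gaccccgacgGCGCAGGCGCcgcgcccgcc
Atp5k (chr5:108434430-108434459): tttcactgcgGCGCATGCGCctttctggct
The motif began before the RefSeq start by 98 bases in Sdha, 79 in Sdhd, 162 in Cox6a1 and 17 in Atp5c1. In Atp5g2 it began 42 bases before that start, in Atp5h 141 and in Atp5k 50. Sdha held 3 matches and Cox6a1 held 2. By GENCODE positions, the printed stretches of Atp5c1 and Atp5g2 lay inside the gene, which begins at 10080510 and 102672352 on the minus strand. That of Atp5k spanned the first base of its gene, 108434448. The letters CCGGAAGT, the core recognised by ETS factors such as GABP, were found in 3 of 35 members (8.57%; Uqcr11, Uqcrh and Atp5h) and in 3.23% of genes (2.88% of windows). AAGATGGC, the core of the YY1 motif, was found in 1 of 35 (2.86%; Atp5j) and in 1.83% of genes (1.56% of windows). Among members with a mean of at least 10 CPM, the median log2 fold change between cKO and WT was -0.01 for the 7 with an NRF1 match and -0.04 for the 24 without. A match describes letters in a window and is not a measured binding site.

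The 3 genes for subunit c of the ATP synthase, Atp5g1, Atp5g2 and Atp5g3, encode the same mature protein, and their levels went in different directions, as given further on. The windows of Atp5g1 and Atp5g3 held none of the 3 motifs. They are shown to set them beside the Atp5g2 site, which lies inside its annotated gene. Both windows are on the minus strand and run up to the first base that GENCODE annotates as exon.
Atp5g1 (chr11:96075671-96075881): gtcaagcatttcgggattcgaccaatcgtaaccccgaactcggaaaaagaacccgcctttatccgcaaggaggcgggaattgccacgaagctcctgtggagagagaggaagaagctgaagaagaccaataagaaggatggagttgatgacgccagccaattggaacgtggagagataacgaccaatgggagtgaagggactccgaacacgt
Atp5g3 (chr2:73911327-73911576): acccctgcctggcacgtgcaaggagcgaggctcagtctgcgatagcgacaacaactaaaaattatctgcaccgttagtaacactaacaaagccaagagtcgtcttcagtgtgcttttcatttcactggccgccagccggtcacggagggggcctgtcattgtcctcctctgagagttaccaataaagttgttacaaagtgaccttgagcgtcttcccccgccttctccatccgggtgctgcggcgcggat

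Of the 47 members, 43 had enough counts to be tested and 40 had a mean of at least 10 CPM. In the edgeR quasi-likelihood test of cKO against WT, with Benjamini-Hochberg adjustment over 17654 genes, 0 members passed an adjusted p of 0.05, and 0% of all genes tested did. Adjusted p-values of the members ran from 0.498 to 0.999. DESeq2 called 1.04% of the 12402 genes it tested and limma-voom 0.0227% of 17654, again with 0 members, whose lowest adjusted p was 0.0747 by DESeq2 and 0.138 by limma-voom. At an unadjusted edgeR p under 0.05, 7 of 43 members lay lower in cKO, where 3.70% of all genes tested did, and 3 lay higher, where 5.02% did. All 10 were among the 38 members with a mean of at least 50 CPM; of all 3892 genes at that level, 7.48% lay lower and 7.12% higher. Without the library labelled cKO 5, 8 members lay lower, beside 4.30% of all genes, and 2 higher, beside 4.47%. Without cKO 1, 8 lay lower, beside 5.10%, and 8 higher, beside 6.59%. All libraries of a group lay beyond all of the other for 5 members: Uqcrb, Uqcrfs1, Cox6c and Atp5g3 were lower in cKO, as were 3.82% of all genes tested, and Atp5g1 was higher, as were 3.38%. These 5 have a mean of at least 50 CPM, and of all 3892 genes at that level 252 lay lower and 164 higher without overlap.

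The members lay on both sides of 0. The median log2 fold change of those tested was -0.05, with 28 below 0 and 15 above, and that of all genes tested was 0.02. By complex it was -0.03 for II, -0.02 for III, -0.03 for IV and -0.18 for V, where 11 of 16 lay below 0. Leaving out the library labelled cKO 5 took the median of complex V to -0.12. The standard errors of the 40 more abundant members were 0.08 to 0.19 on the log2 scale. Summed over all members, the level was 12030 ± 364 CPM (SD, n = 3) in WT, against 11310 ± 591 CPM (SD, n = 5) in cKO, that is 1.20% and 1.13% of the library, and the groups overlapped.

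**Figure D1:**
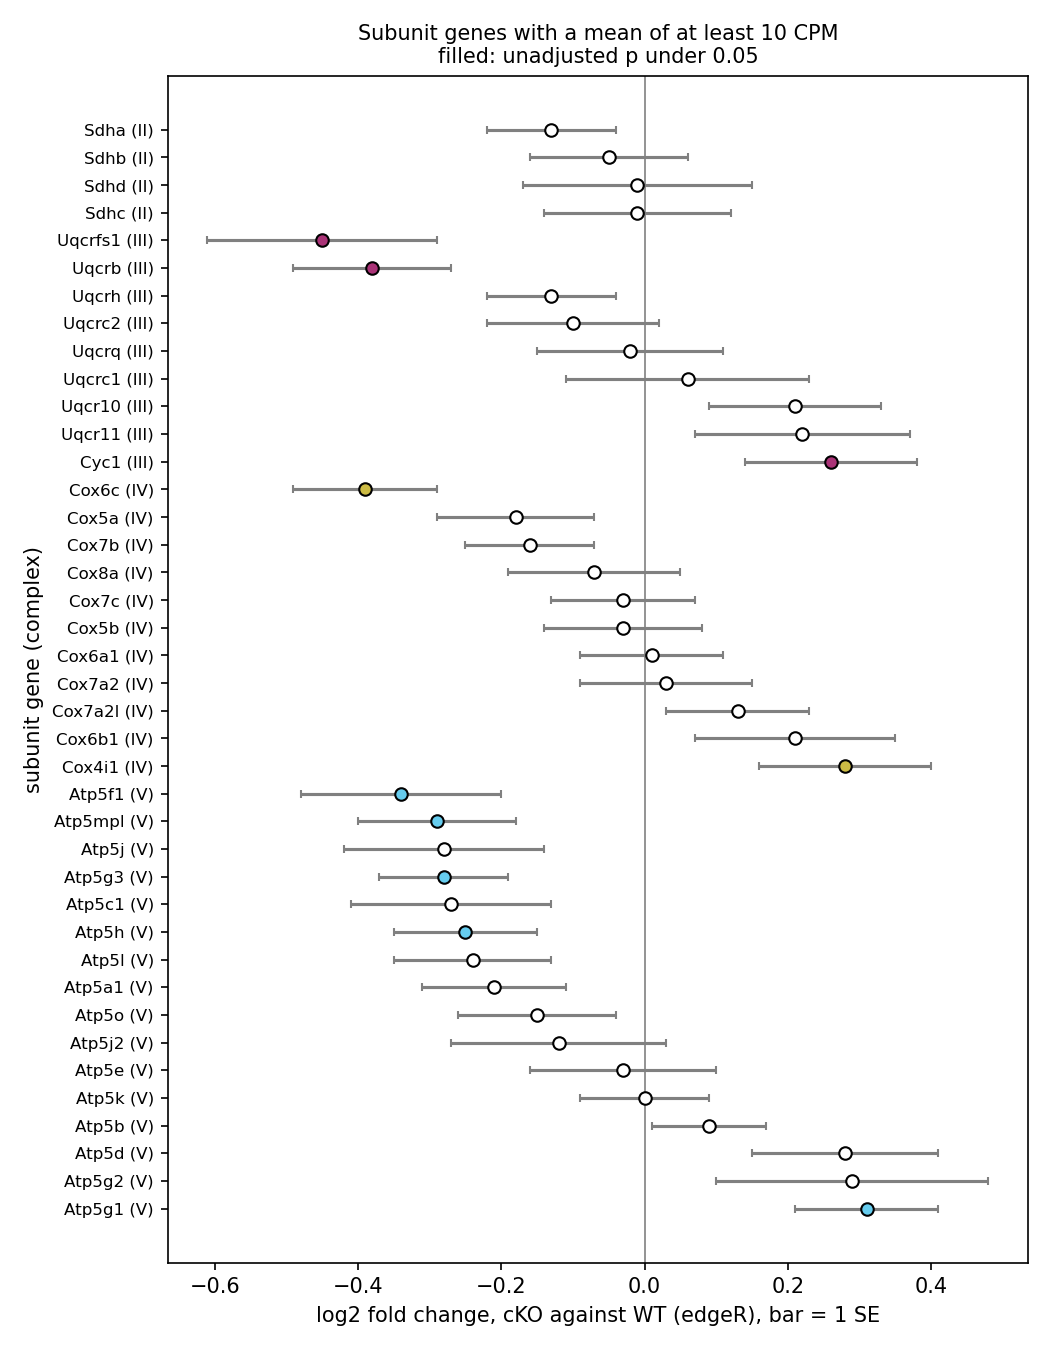
Log2 fold change of cKO against WT (x axis, edgeR) for the 40 subunit genes with a mean of at least 10 CPM, ordered by complex (y axis); bars are 1 SE and filled points have an unadjusted p under 0.05. Complexes III, IV and V have filled points on both sides of 0, complex II has none, and 11 of the 16 points of complex V lie below 0.

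All 4 genes of complex II overlapped between the groups, with log2 fold changes from -0.13 to -0.01. Sdha, the flavoprotein that holds the active site, was at 322, 304 and 294 CPM in WT and at 314, 277, 292, 268 and 250.5 CPM in cKO 1 to 5. Its log2 fold change was -0.13 (SE 0.09; adjusted p = 0.741 by edgeR), and the groups overlapped. The iron-sulfur subunit Sdhb was at 109, 102 and 105.5 CPM in WT and at 86.6, 109, 99.3, 101 and 112 CPM in cKO. In cKO both the lowest and the highest of its 8 values were found, and the log2 fold change was -0.05 (SE 0.11). Sdhc and Sdhd are the membrane anchors that carry the heme and the ubiquinone site. Sdhc was at 123, 114 and 101 CPM in WT and at 88.3, 106, 113, 128 and 123 CPM in cKO, with a log2 fold change of -0.01 (SE 0.13). Sdhd was at 112, 99.5 and 91.7 CPM in WT and at 113, 79.3, 115, 116 and 77.4 CPM in cKO, with a log2 fold change of -0.01 (SE 0.16). For Sdhd, cKO 2 and the library labelled cKO 5 were the lowest of all 8 and cKO 1, 3 and 4 the highest. Per length of the annotated exons, Sdhd at 82.2 RPKM (CPM per kilobase) and Sdha at 74.3 RPKM were the most abundant of complex II in WT; with the length of 1 transcript per gene Sdha came first, at 106 RPKM.

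In complex III, Uqcrb and Uqcrfs1 were separated between the groups, with cKO below WT, whereas cytochrome c1 lay above WT in 4 of 5 cKO libraries. Uqcrb (ENSMUSG00000021520, mm10 chromosome 13, 66900617 to 66905378), a small subunit close to the ubiquinone site, stood at 146, 176 and 152 CPM in WT. It was at 116, 139, 126, 118 and 108 CPM in cKO 1 to 5. The highest cKO value lay below the lowest WT value, the difference was -0.38 on the log2 scale (SE 0.11; adjusted p = 0.499 by edgeR), and the two-sided exact permutation p was 0.0179, the smallest that 3 against 5 libraries allow. Uqcrfs1 (ENSMUSG00000038462, mm10 chromosome 13, 30540308 to 30545362) encodes the Rieske iron-sulfur protein, which takes electrons from ubiquinol. It was at 123, 130 and 125 CPM in WT and at 122, 103, 84.3, 73.2 and 79.6 CPM in cKO 1 to 5. The values of cKO 1 and WT 1 were close together, and the other 4 cKO libraries lay further down. The means were 126 ± 3.40 CPM (SD, n = 3) in WT, against 92.4 ± 19.9 CPM (SD, n = 5) in cKO, with a log2 fold change of -0.45 (SE 0.16; adjusted p = 0.499 by edgeR) and an exact permutation p of 0.0357. Leaving out the library labelled cKO 5 gave -0.34 for Uqcrb and -0.41 for Uqcrfs1.

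Cyc1 (ENSMUSG00000022551, mm10 chromosome 15, 76343523 to 76346260), the heme protein that takes electrons from the Rieske protein and hands them to cytochrome c, was at 115, 110 and 105 CPM in WT and at 125, 112, 147, 152 and 124 CPM in cKO. Only cKO 2 fell inside the WT range. The log2 fold change was 0.26 (SE 0.12; adjusted p = 0.565 by edgeR), with an exact permutation p of 0.0714. The small subunit Uqcr10 was at 170, 191 and 170 CPM in WT and at 165, 217, 217, 198 and 231 CPM in cKO, with a log2 fold change of 0.21 (SE 0.12). Here cKO 1 was the lowest of all 8 libraries and the other cKO libraries were the 4 highest. The other 5 subunits had log2 fold changes of 0.22 (Uqcr11), 0.06 (Uqcrc1), -0.02 (Uqcrq), -0.10 (Uqcrc2) and -0.13 (Uqcrh), and all overlapped. By exon length Uqcr10 was the most abundant of the complex in WT, at 304 RPKM. By the length of 1 transcript Uqcrh, at 410 RPKM, and Uqcr10, at 409 RPKM, differed by less than their spread. Uqcrc1, a core subunit, was the lowest by either length, at 5.81 and 14.5 RPKM.

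**Figure D2:**
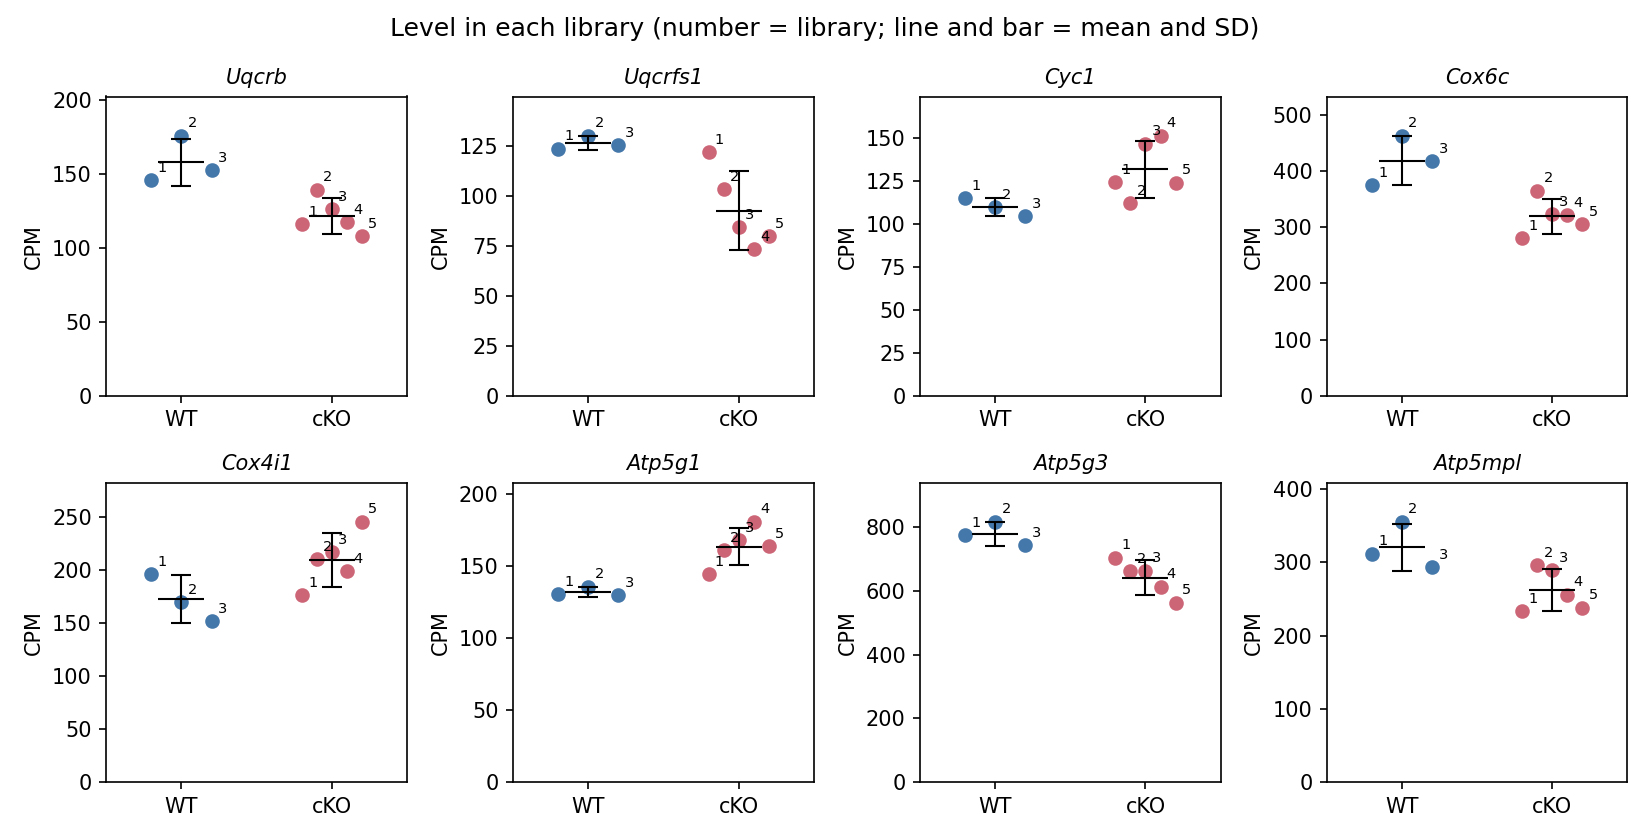
Level in CPM (y axis) of 8 subunit genes in each WT (n = 3) and cKO (n = 5) library; points are libraries with their number, and line and bar are the mean and SD of a group. For Uqcrb, Uqcrfs1, Cox6c and Atp5g3 every cKO point lies below every WT point. For Atp5g1 every cKO point lies above, and Cyc1, Cox4i1 and Atp5mpl overlap. The Hltf level of cKO 5 lies inside the WT range.

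Complex IV held 1 member on each side at an unadjusted p under 0.05. Cox6c (ENSMUSG00000014313, mm10 chromosome 15, 35925886 to 35938246), a small nuclear subunit, was at 375, 464 and 418 CPM in WT and at 281, 365, 323, 321 and 306 CPM in cKO 1 to 5. Every cKO value lay below every WT value, although cKO 2 and WT 1 were close together. The means were 419 ± 44.3 CPM (SD, n = 3) and 319 ± 30.7 CPM (SD, n = 5), with a log2 fold change of -0.39 (SE 0.10; adjusted p = 0.498 by edgeR) and an exact permutation p of 0.0179. It was -0.38 without the library labelled cKO 5. The processed pseudogene Cox6c2, listed at a mean of 97.2 CPM beside 357 CPM for Cox6c, had a log2 fold change of -0.40 (SE 0.11). Reads may be shared between the 2 copies, and Cox6c also overlaps Vps13b on the opposite strand, so its level is uncertain. Uqcrb, Cox4i1, Atp5f1 and Atp5d are among other members that overlap a protein-coding gene, and the same limit holds for them. Cbarp, which overlaps Atp5d, was at a mean of 141 CPM beside 100.5 CPM for Atp5d.

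Cox4i1 (ENSMUSG00000031818, mm10 chromosome 8, 120668222 to 120674207), the common form of subunit 4, was at 196, 170 and 152 CPM in WT and at 176, 210, 216, 199 and 245 CPM in cKO. The 4 highest values were cKO libraries, and cKO 1 fell inside the WT range. The log2 fold change was 0.28 (SE 0.12; adjusted p = 0.565 by edgeR), with an exact permutation p of 0.0714. Leaving out the library labelled cKO 5 gave 0.21, with an unadjusted edgeR p of 0.0898. The remaining abundant subunits had log2 fold changes from -0.18 (Cox5a) to 0.21 (Cox6b1), and the groups overlapped for each. Cox8a was the most abundant subunit gene of the complex in WT per length, at 726 RPKM by exons and 818 RPKM by 1 transcript. It was at 441, 479 and 429 CPM in WT and at 350, 444, 466, 499 and 389 CPM in cKO, and cKO 1 was the lowest library.

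Several complex IV subunits exist in tissue-specific forms, and the pulled-down RNA held the forms found in most tissues. Cox4i1 made up at least 99.96% of the counts of its set in every library, Cox6a1 at least 99.73%, Cox6b1 at least 99.34% and Cox8a at least 99.98%. Cox6a1 was at 404, 445 and 405 CPM in WT and at 373, 434, 473, 454 and 373 CPM in cKO, with a log2 fold change of 0.01 (SE 0.10). Cox6b1 was at 94.4, 111 and 90.7 CPM in WT and at 93.0, 115, 125, 136 and 102 CPM in cKO, with a log2 fold change of 0.21 (SE 0.14). For Cox6b1 cKO 2, 3 and 4 lay above all WT libraries. The forms Cox4i2, Cox6b2, Cox8b and Cox8c, known from lung, testis or muscle, were the 4 members without enough counts for a test, with 7, 52, 5 and 0 counts over all 8 libraries. A count of 0 allows up to 3 counts, which is 0.0480 CPM in the deepest library and 0.0935 CPM in the shallowest, for counting error only. Of the 52 counts of Cox6b2, 37 were in WT 2.

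Cox7a2 and Cox7a2l, the second of which encodes a factor that joins complexes III and IV into supercomplexes, shared the counts of their set. Cox7a2 was at 298, 318 and 280 CPM in WT and at 270, 326, 307, 365 and 258 CPM in cKO, and cKO held both extremes. Cox7a2l was at 161, 144 and 143 CPM in WT and at 149, 157, 175, 181 and 153.5 CPM in cKO, with a log2 fold change of 0.13 (SE 0.10). The share of Cox7a2 was 66.5 ± 1.94% (SD, n = 3) in WT, against 65.0 ± 2.06% (SD, n = 5) in cKO. Cox7a1, the heart and skeletal muscle form, was at 0.718, 1.39 and 1.17 CPM in WT and at 0.498, 0.735, 0.437, 0.669 and 0.407 CPM in cKO, from 14 to 70 counts. Only cKO 2 exceeded the lowest WT value. Its log2 fold change of -0.99 (SE 0.54; adjusted p = 0.637 by edgeR) was the lowest of all members. Cox6a2, the other muscle form, had 10 to 46 counts and a log2 fold change of -0.47 (SE 0.62), and Cox7b2, a form known from testis, was at 0.01 (SE 0.85).

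Complex V had the lowest median of the 4 complexes. In its rotor ring, Atp5g3 and Atp5g1 were separated between the groups in different directions. Atp5g3 (ENSMUSG00000018770, mm10 chromosome 2, 73908447 to 73911326) stood at 776, 818 and 744 CPM in WT and at 704, 663, 664, 613 and 563 CPM in cKO 1 to 5. Its means were 779 ± 37.1 CPM (SD, n = 3) and 642 ± 54.5 CPM (SD, n = 5), with a log2 fold change of -0.28 (SE 0.09; adjusted p = 0.499 by edgeR) and an exact permutation p of 0.0179. Atp5g1 (ENSMUSG00000006057, mm10 chromosome 11, 96068852 to 96075670) stood at 130, 136 and 130 CPM in WT and at 144, 161, 168, 181 and 164 CPM in cKO 1 to 5. All 5 cKO values lay above all WT values. The means were 132 ± 3.25 CPM (SD, n = 3) and 164 ± 13.1 CPM (SD, n = 5), with a log2 fold change of 0.31 (SE 0.10; adjusted p = 0.499 by edgeR) and an exact permutation p of 0.0179. Atp5g2 was at 16.8, 15.8 and 14.6 CPM in WT and at 13.2, 21.4, 19.7, 18.2 and 23.3 CPM in cKO, so that cKO 1 was the lowest of 8 and the other cKO libraries the 4 highest. Leaving out the library labelled cKO 5 gave -0.24 for Atp5g3 and 0.31 for Atp5g1.

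Because the 3 genes yield the same mature subunit, their shares were also compared within each library, without a test. Atp5g1 held 14.1%, 14.0% and 14.6% of their counts in WT and 16.7%, 19.1%, 19.7%, 22.3% and 21.8% in cKO 1 to 5. Atp5g3 held 83.8 to 84.4% in WT and 75.1 to 81.7% in cKO, and Atp5g2 held 1.53 to 3.10% over all libraries. The summed level of the set was 927 ± 40.7 CPM (SD, n = 3) in WT, against 824 ± 45.5 CPM (SD, n = 5) in cKO, and the groups did not overlap. The share of Atp5g1 depends on the length that is assumed for each gene: its mean was 6.83% in WT and 9.88% in cKO per exon length, and 2.48% and 3.68% per length of 1 transcript.

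**Figure D3:**
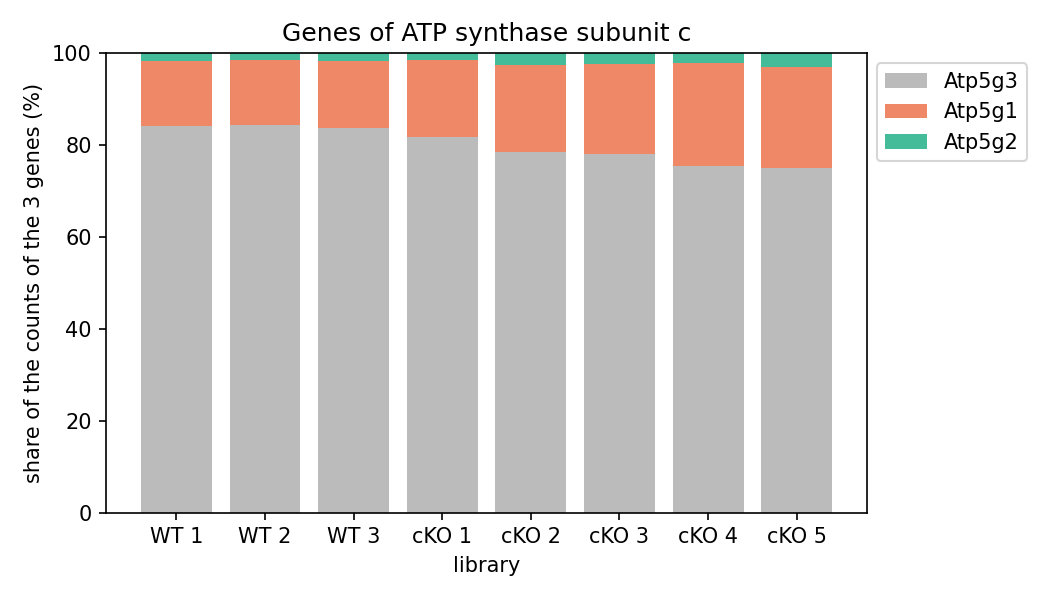
Share of the counts of Atp5g1, Atp5g2 and Atp5g3 (y axis, percent of the 3 genes together, not scaled by length) in each library (x axis). Atp5g1 takes 14.0 to 14.6% in the WT libraries and 16.7 to 22.3% in the cKO libraries, and Atp5g3 takes correspondingly less. The Hltf level of cKO 5 lies inside the WT range.

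In the peripheral stalk, which holds the catalytic head still against the rotor, Atp5f1 (subunit b) was at 350, 333 and 364 CPM in WT and at 342, 295, 292, 245 and 207 CPM in cKO. Only cKO 1 fell inside the WT range; the log2 fold change was -0.34 (SE 0.14; adjusted p = 0.558 by edgeR), and -0.25 without the library labelled cKO 5. It is named to complete the count of 7, after its values were seen. Atp5h (subunit d) was at 218, 211 and 186 CPM in WT and at 163, 178, 159, 168 and 197 CPM in cKO. Its log2 fold change was -0.25 (SE 0.10; adjusted p = 0.548 by edgeR), and the library labelled cKO 5 was the one that overlapped with WT. Atp5j (the coupling factor of the stalk) and Atp5o (the subunit that ties the stalk to the head) had log2 fold changes of -0.28 (SE 0.14) and -0.15 (SE 0.11).

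Among the small membrane subunits, Atp5mpl was at 312, 356 and 294 CPM in WT and at 233, 296, 289, 256 and 238 CPM in cKO. Its log2 fold change was -0.29 (SE 0.11; adjusted p = 0.527 by edgeR), and cKO 2 overlapped with WT 3. Atp5l (subunit g), at -0.24 (SE 0.11), has 3 processed pseudogenes in the table, of which Atp5l-ps1 was listed at 175 CPM and Atp5l2-ps at 171 CPM beside 350 CPM for Atp5l itself; reads may be shared among them, so its level is uncertain. Atp5j2 was at -0.12 and Atp5k at 0.00, and both overlapped.

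In the catalytic head, Atp5b, the beta subunit with the catalytic sites, was at 1873, 1883 and 2040 CPM in WT and at 2151, 2167, 2090, 1912 and 1930 CPM in cKO. It had the highest CPM of all 47 members, and its log2 fold change was 0.09 (SE 0.08; adjusted p = 0.808 by edgeR). Its partner in the head, the alpha subunit Atp5a1, was at 853, 874 and 808 CPM in WT and at 820, 775, 723, 727 and 618 CPM in cKO; it is given in full, after its values were seen, to stand beside Atp5b. Here cKO 1 lay inside the WT range and the other 4 below it, with a log2 fold change of -0.21 (SE 0.10). Of the central stalk, Atp5c1 (gamma) was at a log2 fold change of -0.27 (SE 0.14), Atp5d (delta) at 0.28 (SE 0.13) and Atp5e (epsilon) at -0.03 (SE 0.13). Per exon length Atp5b, at 456 RPKM, was the most abundant member of the complex in WT. Per length of 1 transcript Atp5g3, at 1078 RPKM, came before Atp5b, at 1008 RPKM. Summed over the complex, the level was 6555, 6793 and 6543 CPM in WT and 6332, 6592, 6280, 5908 and 5598 CPM in cKO, and cKO 2 overlapped with WT.

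The cKO libraries differed among themselves. Across the 40 more abundant members, the median deviation from the WT mean on the log2 scale was -0.17 in cKO 1, 0.04 in cKO 2, 0.00 in cKO 3 and -0.06 in cKO 4, and it was -0.15 for the library labelled cKO 5, beside 0.01, 0.06 and -0.08 in WT 1 to 3. The lowest of the 8 values was in cKO 1 for 15 members and in the library labelled cKO 5 for 13. Complex V was at 0.01, 0.06 and -0.08 in WT and at -0.17, -0.01, -0.08, -0.18 and -0.21 in cKO, so that cKO 2 and 3 were no lower than WT 3. Complex IV was at -0.16, 0.07, 0.04, 0.15 and -0.16, on both sides of 0.

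**Figure D4:**
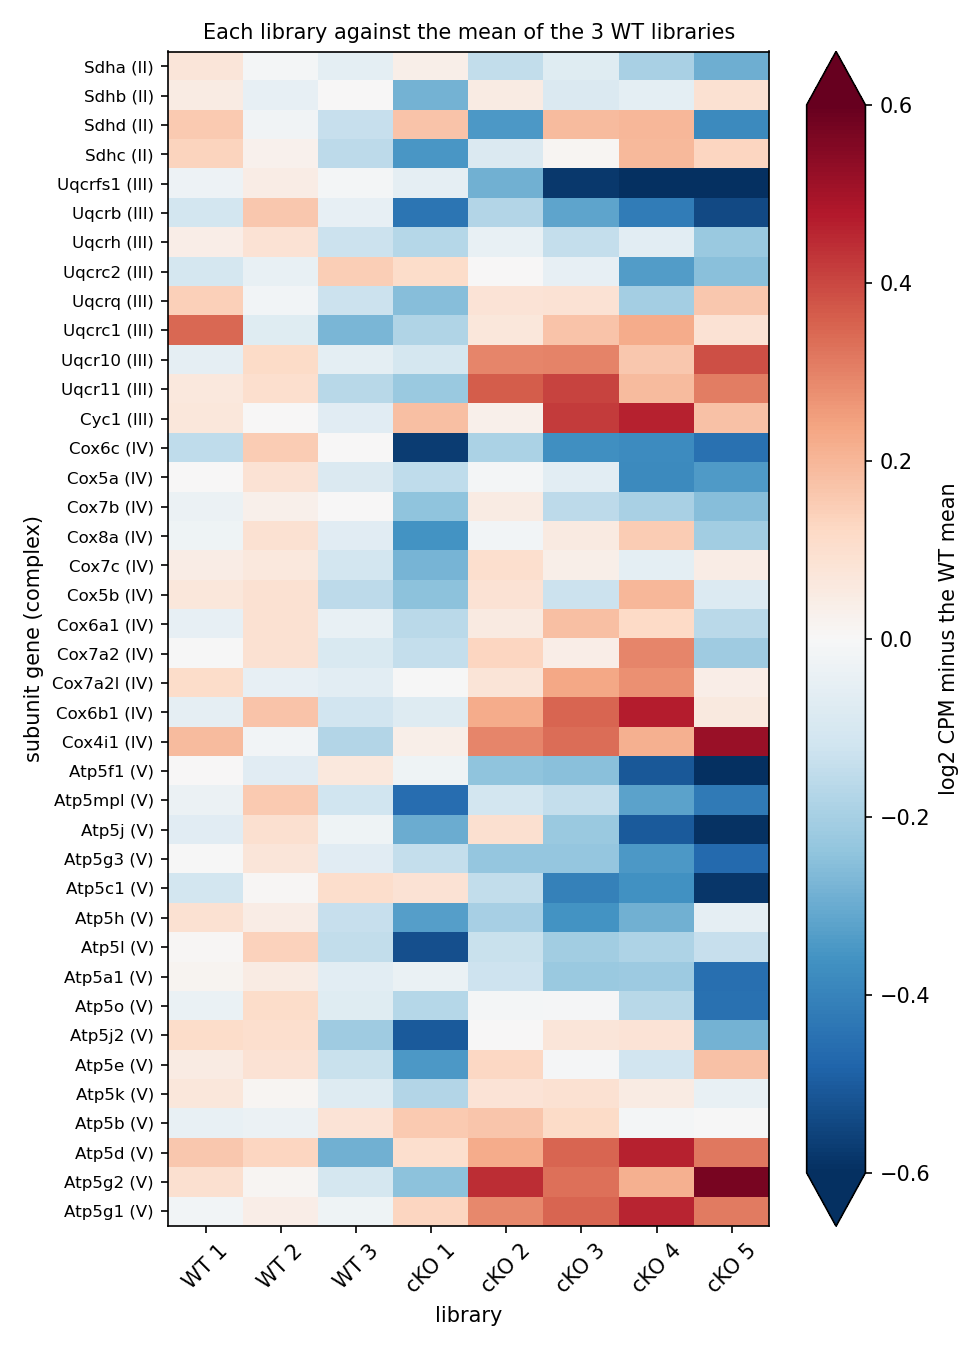
Log2 CPM minus the mean of the 3 WT libraries (colour; values beyond the ends of the scale take the end colour) for 40 subunit genes (y axis) in each library (x axis). Uqcrb, Cox6c and Atp5g3 are among the genes below 0 in all 5 cKO columns, and Atp5g1 is among those above 0 in all 5. The lowest value is in cKO 1 for 15 of the genes and in cKO 5, the library whose Hltf level lies inside the WT range, for 13.

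The fold change of a member went with the GC content of its transcript. Over the 40 members, Pearson's r was 0.50 and Spearman's rho 0.49; genes of 1 comparison share libraries and are not replicates, so no p is given. Over the 3868 of 3892 genes of at least 50 CPM whose GC content was known, the values were 0.35 and 0.33. The 13 members of lowest GC content (42.0 to 49.0%) had a median log2 fold change of -0.16, with 12 below 0, and the 13 of highest (53.9 to 59.3%) had 0.06, with 5 below 0. Among the same 3868 genes, the rank correlation of deviation with GC content was -0.16, -0.22 and -0.38 in WT, -0.47 in cKO 1 and 0.05, 0.30, 0.29 and 0.37 in cKO 2 to 5. After each library's trend on GC content and length was removed, the log2 fold change was -0.24 for Uqcrb, -0.36 for Uqcrfs1, -0.27 for Cox6c, -0.21 for Atp5g3 and 0.34 for Atp5g1. Of the other 5 members with an unadjusted edgeR p under 0.05, Atp5mpl kept it, at -0.31. The other 4 no longer reached it: Atp5h was at -0.16, Atp5f1 at -0.26, Cyc1 at 0.20 and Cox4i1 at 0.18. Cox6b1, at 0.27, was among those that came under it, and Atp5l went from -0.24 to -0.12. After the correction 6 members lay lower and 2 higher at that level, beside 3.64% and 4.01% of all genes tested. The 6 include a member that is not named here. Atp5g1, with 46.8% GC, had the highest fold change of all tested members. That GC content is of a 4715-base transcript, whereas the transcripts used for Atp5g2 and Atp5g3 have 731 and 723 bases. How Atp5g1 would lie with another transcript, before or after the correction, was not tested.

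**Figure D5:**
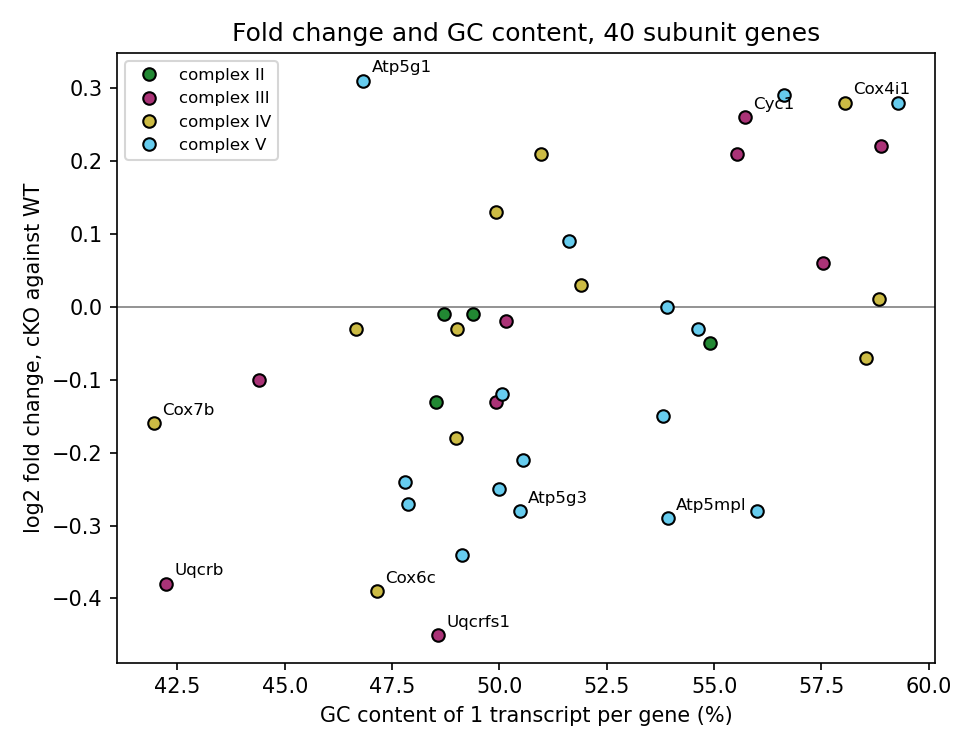
Log2 fold change of cKO against WT (y axis, edgeR, all 8 libraries) against the GC content of 1 transcript per gene (x axis, percent) for 40 subunit genes, coloured by complex. The points climb from left to right (Spearman's rho 0.49), and Atp5g1, placed by a 4715-base transcript, stands above the others of like GC content.

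Genes that build or surround the complexes were read from the same comparison. Of 4 complex II assembly factors, all lay below 0 (median log2 fold change -0.33), and Sdhaf2, which attaches the flavin to Sdha, was at 56.7 ± 2.18 CPM (SD, n = 3) in WT, against 44.6 ± 1.81 CPM (SD, n = 5) in cKO, without overlap. Its log2 fold change was -0.35 (SE 0.10; adjusted p = 0.499 by edgeR). Of 22 complex IV assembly factors tested, 3 lay lower (Cox14, Cox16 and Cox17) and 1 higher (Sco1) at an unadjusted p under 0.05, beside 3.70% and 5.02% of all genes tested, with a median of -0.09. Cox16 was at 88.7 ± 9.20 CPM (SD, n = 3) in WT, against 64.1 ± 6.47 CPM (SD, n = 5) in cKO, with a log2 fold change of -0.47 (SE 0.12; adjusted p = 0.480 by edgeR). The copper carriers Cox17 and Sco1 were at -0.36 (SE 0.11) and 0.60 (SE 0.23), both without overlap. Of 6 complex III factors 0 passed that level, and of 5 complex V factors 1 did: Atpaf1, which helps assemble the catalytic head, at -0.32 (SE 0.13).

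Ndufa4, now counted as a complex IV subunit although its symbol falls outside the rule, was at 918 ± 30.0 CPM (SD, n = 3) in WT, against 761.5 ± 83.2 CPM (SD, n = 5) in cKO, without overlap, with a log2 fold change of -0.27 (SE 0.10; adjusted p = 0.511 by edgeR). Higd1a, a partner of complex IV, was at -0.37 (SE 0.14), and cytochrome c itself (Cycs) at -0.11. Of 13 other tricarboxylic acid cycle enzymes and 11 regulators of mitochondrial biogenesis, 0 passed an unadjusted edgeR p of 0.05, with medians of 0.06 and -0.13. Of 36 nuclear complex I subunits, 8 lay lower and 0 higher at that level, with a median of -0.06; over all genes tested the shares were 3.70% and 5.02%, and over genes of at least 50 CPM 7.48% and 7.12%. The 6 mitochondrially encoded subunits of complexes III to V all lay above 0 (median 0.62), with mt-Co1 at 0.81 (SE 0.23) and mt-Cytb at 0.80 (SE 0.22). Both had an adjusted p of 0.499 by edgeR, and the groups overlapped for mt-Co1 but not for mt-Cytb. The summed level of the 6 was 251 ± 27.7 CPM (SD, n = 3) in WT, against 418 ± 142 CPM (SD, n = 5) in cKO, and the groups overlapped. These RNAs are translated by mitochondrial ribosomes, which do not carry L10, so the tag does not bind them directly.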

How the data were processed

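RNA sequencing counts of 8 TRAP libraries were analysed, 3 WT and 5 cKO, grouped by the genotype in the labels. The deposited table holds raw counts per Ensembl gene, whole numbers without scaling, made by the authors with STAR 2.5.3a, HTSeq and the build mm10, per the submitters' processing notes. The annotation release, strand setting and filters are not given in the sources used here; 17 members overlap another annotated gene, so their reads could be split or lost.

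Symbols, positions, lengths and GC content came from GENCODE vM21, which matched 37693 of 39017 genes. The counts were tested in R 4.3.3 with edgeR 4.0.16 (TMM scaling, filterByExpr by group, robust quasi-likelihood fit, two-sided), adjusted by Benjamini-Hochberg over 17654 genes and called at 0.05. The filter on low counts passed 43 of 47 members. CPM uses TMM-scaled totals, and RPKM divides it by the exon-union length. Single members were also compared by a two-sided exact permutation test over 56 splits of 8 libraries, with a smallest possible p of 0.0179.

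Library values were given for all complex II genes, the tissue-form sets, the most abundant member per length in each complex, and up to 3 members of each complex and direction with the smallest p under 0.05. Atp5f1 and Atp5a1 were added after their values were seen. From other lists, up to 4 genes with the smallest p were named. The members, lists and rules were chosen with earlier results of these data known. Alternatives were other scalings (RLE, upper quartile), other filters, DESeq2 1.42.0, voom of limma 3.58.1 with quality weights, each library left out, 6 libraries with and without the replicate number as block, and a correction for GC content and length. The procedure was tested on simulated data. Plots were made in Python 3.11.15 with matplotlib 3.10.9.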

Additional observations from a re-analysis of the deposited data

Results flagged for a closer look

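Atp5l, subunit g of the ATP synthase, stood apart in cKO 1, at 267.2 CPM, where the other 4 cKO libraries lay between 333 and 351 CPM. The gap to the nearest library was 0.791 of the whole range of the cKO group, above the critical value of 0.71 for 5 libraries (Dixon's test). It was the only one of 47 such tests in which a library stood apart, fewer than the 2.35 that chance gives on average. The WT libraries were at 386, 424 and 348 CPM.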

How the results depend on the processing

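In all 17 alternatives, 0 members passed an adjusted p of 0.05, with 0.0747 as the lowest (DESeq2). At an unadjusted p under 0.05, the 7 members that lay lower became 11 with limma-voom, where 6.51% of all genes lay lower, and the 3 that lay higher became 1 in 6 libraries without a replicate block (4.45% of all genes) and 1 with the replicate block (3.94%). Replicate numbers were not accepted as pairs, since the deviations of same-numbered libraries correlated at -0.124, 0.0355 and 0.0257. Leaving out 1 library gave 3 (without WT 2, 1.99% of all genes) to 9 (without cKO 2, 3.47%) lower. It gave 1 (without WT 2, WT 3 or cKO 3, 2.66%, 3.21% and 4.74%) to 8 (without cKO 1, 6.59%) higher. The share over all genes thus moved between these fits too, and the cause was not tested. The median log2 fold change of complex V stayed between -0.21 (without WT 3) and -0.12 (without the library labelled cKO 5), within the spread between libraries. The log2 fold changes of 25 members were recomputed, 423 values in all; 405 kept their sign and 18 reversed, all of 5 members whose value was between -0.05 and 0.03: Sdhc to 0.04 and Sdhd to 0.07 and Cox6a1 to -0.10 with the GC and length correction, Sdhd to 0.03 with limma-voom and to 0.01 in 6 libraries without a block. With each library left out, Sdhb ran from -0.09 to 0.001, Sdhc from -0.09 to 0.06, Sdhd from -0.08 to 0.07, Cox6a1 from -0.03 to 0.06 and Cox7a2 from -0.04 to 0.08. The 5 members without overlap kept their direction throughout, Uqcrb at -0.43 to -0.30, Uqcrfs1 at -0.57 to -0.38, Cox6c at -0.47 to -0.31, Atp5g3 at -0.32 to -0.24 and Atp5g1 at 0.27 to 0.35 with a library left out. The length of 1 transcript, an alternative chosen after seeing the data, moved the levels per length, so the order of Sdha against Sdhd and of Atp5b against Atp5g3 depends on it. The depth limits Cox6a2, Cox7a1 and Cox7b2, whose standard errors were 0.62, 0.54 and 0.85.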
